A study of Bos taurus with 54 samples.

Results

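The 26 libraries described here were prepared with the Lexogen QuantSeq 3′ kit from blood of Holstein male calves, 13 taken after heat stress and 13 taken before it, out of 54 libraries in the series. They were chosen by their labels, kit Lexogen with the treatment given as heat stress or as normal, with earlier results of these data known. The 13 thermoneutral control libraries came from blood drawn at 6:30, and the 13 heat stress libraries from blood drawn at 18:30, after 12 h in a heated climate room. The sources disagreed on the time of calf 20, which was left out. In 12 calves both times were available, while calf 15 had only the heat stress library and calf 7 only the control library. No library used here is from a calf kept at thermoneutrality until 18:30, so heat and time of day cannot be told apart. Red blood cells were lysed before the RNA was isolated, and the RNA is that of the remaining cells, chiefly leukocytes. In such bulk RNA, fewer cells of a type and less RNA per cell cannot be told apart.

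In mammals, heat above the range a cell tolerates releases the transcription factor HSF1, which switches on genes for chaperones such as HSP70 and HSP90 that hold and refold proteins. Heat load also acts on the whole animal through the adrenal axis. Glucocorticoids bind a receptor in leukocytes that induces genes such as FKBP5, DUSP1 and IL1R2, and they are known to mobilise neutrophils into blood and to withdraw lymphocytes from it. Each kit used here reads the 3′ end of polyadenylated RNA, so that 1 transcript gives about 1 read position and the count does not grow with its length.

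Filtered reads per library lay between 7126511 and 93690473, and the deepest was the heat stress library of calf 15. Reads from 4 ribosomal RNA rows, which took 18.9% to 40.6% of the reads on genes, were removed before any level was computed. Genes with a count of 1 or more numbered 13893 ± 1362 in the controls and 12830.5 ± 1475 after heat stress (SD, n = 13 each; two-sided permutation test of the difference in means, p = 0.0679, adjusted p = 0.272 over 4 library measures). The heat stress library of calf 18 had the fewest such genes, 9269. The difference in mean was -2127 genes in the 15 libraries of number set 1 and 353 genes in the 11 of number set 2. These number sets are 2 ranges of sample numbers with a wide gap between them, each calf lying in 1 of them, and what they stand for is not given in the sources used here. Neutrophil genes and T cell genes were detected in every library and their summed levels are given below.

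In edgeR's quasi-likelihood test, 651 of 11066 genes rose (5.88%) and 49 fell (0.443%) at a Benjamini-Hochberg adjusted p under 0.05. All log2 changes below are heat stress against control from this fit, and levels are CPM, the count of a gene scaled to a common library size by TMM. Of the genes that rose, 484 did so by a log2 change of at least 1, against 23 of those that fell. The median change over all genes tested was -0.04, and 46.6% of them had a positive change. Without the heat stress libraries of calves 15 and 18, 326 genes rose and 36 fell. With the calf as a block, 50 genes rose (0.452%) and 16 fell (0.145%). An exact Wilcoxon rank-sum test, run on the 8447 genes without tied values, called 1.37% of them up and 0.639% down. Blocked values are given below where they end a call.

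**Figure D1:**
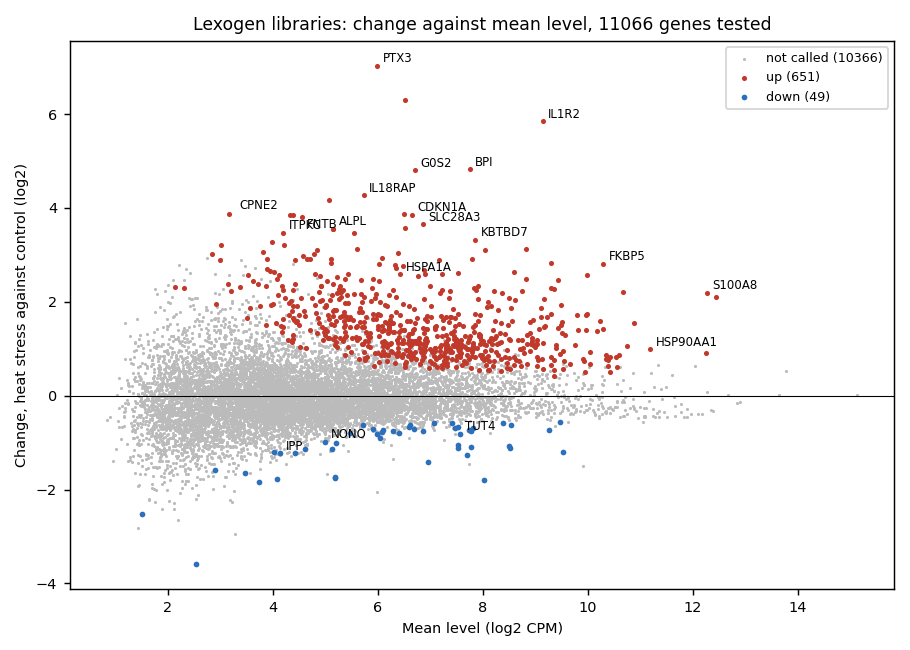
Change between the times (vertical axis, log2, heat stress against control) against the mean level (horizontal axis, log2 CPM) for the 11066 genes tested in 26 Lexogen libraries. The 651 red genes rose and the 49 blue genes fell at an adjusted p under 0.05; the red genes reach a log2 change of 7.03 (PTX3).

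The 12 named genes with the largest increases rose by log2 changes from 3.32 to 7.03. PTX3, a secreted pattern recognition molecule (chromosome 1, 110158197 to 110164262 in ARS-UCD2.0), lay between 0 and 3.22 CPM in the controls, with a median of 0.257. After heat stress it ranged from 0.136 to 668 CPM, with a median of 11.8. PTX3 exceeded every control in 9 of 13 heat stress libraries and rose by 7.03 ± 1.07 on the log2 scale (SE, adjusted p = 0.000468). IL1R2, the decoy receptor that traps interleukin 1 without signalling (chromosome 11, 6690101 to 6729069), ranged from 0.897 to 67.9 CPM in the controls, with a median of 13.7. After heat stress its lowest, median and highest values were 3.45, 54.2 and 3668 CPM. Only 6 heat stress libraries stood above every control, those of calves 15, 16, 18, 29, 36 and 40, at 937 to 3668 CPM, and the other 7 lay between 3.45 and 54.2 CPM, inside the range of the controls. The log2 change was 5.85 ± 0.92 (SE, edgeR, adjusted p = 0.000468). It was positive in 9 of 12 calves, the fewest allowed by the rule that named the 12 genes.

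BPI, which kills Gram-negative bacteria and is stored in neutrophil granules (chromosome 13, 67153977 to 67201888), ranged from 1.19 to 34.8 CPM in the controls, with a median of 15.0. The heat stress libraries ranged from 2.0 to 1272 CPM, with a median of 31.5. The libraries of the same 6 calves stood above every control, at 565 to 1272 CPM, and the log2 change was 4.83 ± 0.84 (SE, adjusted p = 0.000962). G0S2, an inhibitor of the lipase that opens fat droplets, went from a control median of 5.87 CPM (0.714 to 20.7) to 42.2 CPM (2.17 to 670), and 8 heat stress libraries exceeded all controls. Its log2 change was 4.80 ± 0.75 (SE, adjusted p = 0.000468). IL18RAP, the accessory chain of the interleukin 18 receptor, had medians of 3.47 CPM (0.280 to 23.1) and 70.3 CPM (0.497 to 325) and rose by 4.27 ± 0.75 (SE, adjusted p = 0.000962). SLC28A3, a nucleoside transporter, exceeded every control in 10 of 13 heat stress libraries, with medians of 17.9 and 94.9 CPM and a log2 change of 3.65.

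The remaining 6 were CDKN1A, an inhibitor of cyclin-dependent kinases (log2 change 3.86), CPNE2, a calcium-dependent phospholipid-binding protein (3.85), FNTB, a subunit of the farnesyltransferase that lipidates proteins (3.81), ALPL, alkaline phosphatase (3.55), ITPKC, a kinase of inositol trisphosphate (3.47), and KBTBD7, an adaptor of a ubiquitin ligase (3.32). In each of these 6 genes, the 6 heat stress libraries named above stood higher than every control. Of the other 7 heat stress libraries, 1 did so in FNTB, ALPL and KBTBD7 and 0 in CDKN1A, CPNE2 and ITPKC. The medians of CDKN1A were 12.3 CPM in the controls and 19.3 CPM after heat stress. With the calf as a block, PTX3 (5.51, adjusted p = 0.012) and IL18RAP (3.40, adjusted p = 0.0364) stayed called among the 12. IL1R2 then had a log2 change of 3.32 (adjusted p = 0.17), BPI 3.31 (adjusted p = 0.081), G0S2 3.11 (adjusted p = 0.0624) and CDKN1A 1.46 (adjusted p = 0.319). KBTBD7 had 2.32 (adjusted p = 0.0582), SLC28A3 2.51 (0.0624), FNTB 3.45 (0.112), ALPL 2.42 (0.123), CPNE2 3.31 (0.215) and ITPKC 1.56 (0.377). Without the heat stress libraries of calves 15 and 18, CPNE2 was not called (3.06, adjusted p = 0.0656), and the other 11 were.

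**Figure D2:**
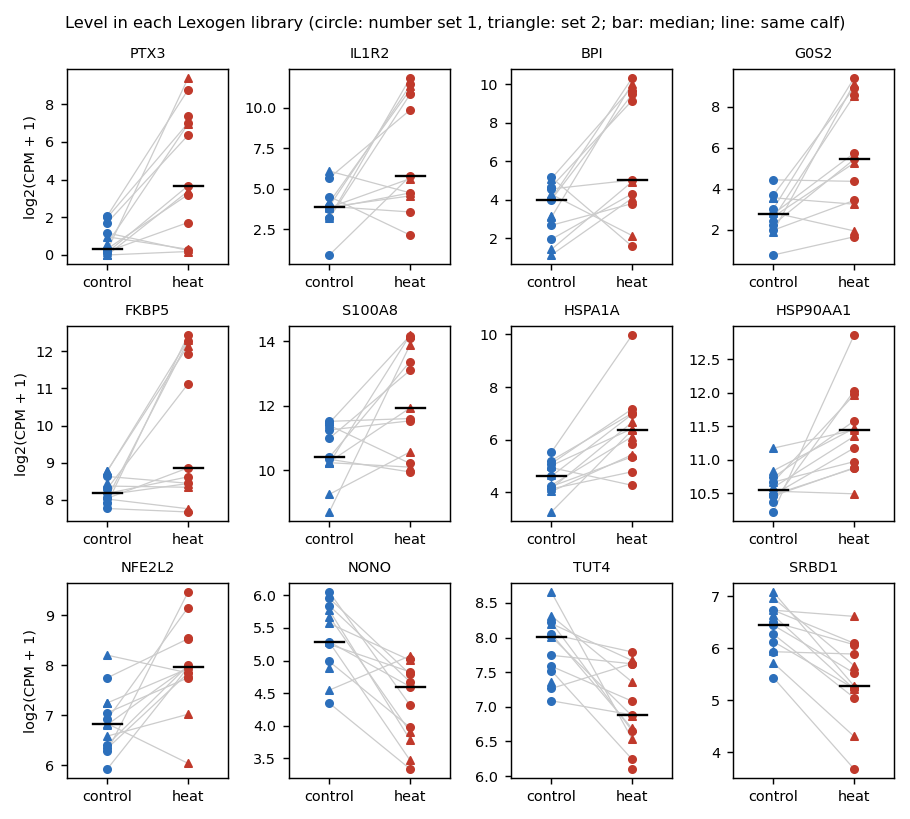
Level of 12 genes in each of 26 Lexogen libraries, as log2(CPM + 1), for control (blue) and heat stress (red); circles are number set 1, triangles set 2, the bar is the median and lines join the libraries of 1 calf. IL1R2 and BPI split the heat stress libraries into 6 high values and 7 near the controls, while HSPA1A and HSP90AA1 stand above every control in 9 of 13.

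The heat stress libraries were thus unequal. The 6 libraries with the highest IL1R2 (calves 15, 16, 18, 29, 36 and 40) also held the 6 highest heat stress values of 11 of the 12 genes named above. Over all 651 genes that rose, they held the 6 highest heat stress values in 248 (38.1%). Over all 11066 genes tested they did so in 364 (3.29%). These counts describe libraries picked by a measured gene and genes called on the same libraries, so they carry no test. Calves 15, 18, 29 and 40 belong to number set 1 and calves 16 and 36 to set 2.

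The changes within calves below are likewise over genes called on these libraries, so that their direction is largely set by that choice. The median change over the 651 genes was 2.31 in calf 36, 2.26 in calf 18, 2.02 in calf 40, 1.70 in calf 16 and 1.32 in calf 29. In the other 7 calves with both times it ran from -0.19 in calf 3 to 0.82 in calf 19. The 49 genes that fell had a negative median change in each of the 12 calves, from -0.33 in calf 41 to -1.51 in calf 18. Calf 18 also had a median change of -1.0 over all genes tested, against -0.19 to 0.26 in the other 11. The kits share the RNA. In the Takara libraries 5 of these 6 calves, and never all 6, were among the 6 highest heat stress values in each of the 12 named genes. These 6 are calves 15, 16, 18, 29, 36 and 40. Calf 7, which had no Lexogen heat stress library, reached 4258 CPM of IL1R2 with the Takara kit, and calf 29 had 1257 CPM.

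**Figure D3:**
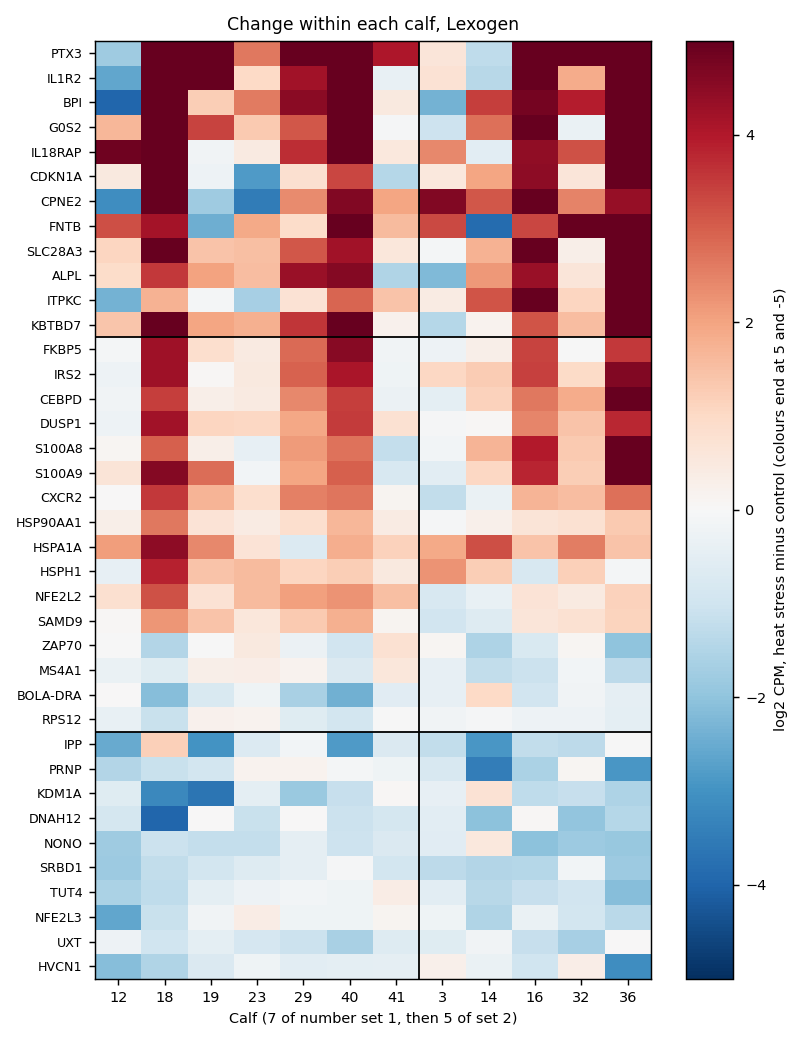
Change within each of 12 calves (columns, 7 of number set 1 and then 5 of set 2) in log2 CPM, heat stress minus control, for the 12 named genes with the largest increases, 16 genes of the lists and the 10 named genes that fell (rows, in 3 blocks). The upper block is red throughout in calves 18, 29, 40, 16 and 36, though pale in calf 29 for CDKN1A, FNTB and ITPKC. It is mixed in the other 7, while the chaperone HSPA1A is red in 11 of 12 and SRBD1 is blue in 12 of 12.

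The counts of calls in the lists below stand beside the 5.88% of all genes tested that rose and the 0.443% that fell. The lists were chosen with earlier results of these data known, so their counts are descriptions and carry no test. Glucocorticoid-induced genes formed the list with the most calls by number, while the neutrophil list, with 8 of 10, had a higher share. Of 17 tested, 11 rose and 0 fell, with a median change of 1.55. The calls included IL1R2, given above. FKBP5, a co-chaperone that lowers the affinity of the glucocorticoid receptor for its hormone, ranged from 217 to 440 CPM in the controls, with a median of 287.9. After heat stress it ranged from 203 to 5538 CPM, with a median of 464. The heat stress libraries exceeded every control in 7 cases and lay below every control in 2. FKBP5 rose by 2.81 ± 0.48 (SE, adjusted p = 0.000932) and had a log2 change of 1.54 with the calf as a block (adjusted p = 0.129). IRS2, the insulin receptor substrate, had medians of 49.2 and 105 CPM and a log2 change of 3.11 (adjusted p = 0.000784; blocked 0.068). CEBPD, a transcription factor of the acute phase, had medians of 198 and 443 CPM and a log2 change of 2.47 (adjusted p = 0.000962; blocked 0.0867). Blocking left 3 of the 11 calls.

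Cytokines and their receptors rose in 7 of 14 tested (median 1.00), and PTX3, IL1R2 and IL18RAP were among them. IL1RAP, the chain that interleukin 1 receptors need to signal, ranged from 1.79 to 46 CPM in the controls, with a median of 10.2. After heat stress it ranged from 17.9 to 299 CPM, with a median of 64.6. IL1RAP exceeded every control in 7 heat stress libraries, rose in 11 of 12 calves by 2.94 ± 0.48 (SE, adjusted p = 0.000784) and stayed called with the calf as a block (2.77, adjusted p = 0.0132). Genes of NF-kB, the transcription factor of inflammatory signals, and of its feedback rose in 4 of 14 (median 0.49). NFKBIA, the inhibitor that returns NF-kB to the cytoplasm, had medians of 398 and 829 CPM and a log2 change of 1.73 (edgeR, adjusted p = 0.00249, blocked 0.101). It is also on the glucocorticoid-induced list and was counted among the calls there. REL (1.17), TNIP1 (1.27) and BCL3 (1.89) also rose, and with the calf as a block they had log2 changes of 0.88, 0.87 and 1.48 without being called (adjusted p 0.186, 0.269 and 0.376). TNIP1 was not called without the heat stress library of calf 15 or that of calf 36, and 8 of the 26 fits that leave out 1 library lost BCL3.

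Immediate early genes rose in 3 of 10 (median 0.49). DUSP1, a phosphatase of MAP kinases that is also glucocorticoid-induced, had a log2 change of 2.30 (adjusted p = 0.000962; blocked 0.0574), and FOSL2 and JUN, subunits of AP-1, had 1.38 and 0.79 (adjusted p 0.0028 and 0.031; blocked 0.104 and 0.147). STAT and SOCS genes rose in 3 of 16 (median 0.50): STAT3 by 1.57, SOCS3, its feedback inhibitor, by 1.08 and PIM1, a kinase that STAT factors induce, by 0.93 (blocked adjusted p 0.083, 0.0624 and 0.101). Toll-like receptor genes rose in 3 of 9, while the median of the list was -0.01. They were the adaptor MYD88 (1.49, adjusted p = 0.00717), TLR4 (1.24, adjusted p = 0.0252) and TLR8 (1.04, adjusted p = 0.042), and none kept its call with the calf as a block (0.111, 0.0968 and 0.17). Of 25 interferon-stimulated genes, only SAMD9 rose in edgeR (0.79, adjusted p = 0.0366, blocked 0.173), and the median was 0.02. That share is near the 5.88% of all genes that rose.

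Adhesion genes rose in 3 of 12 (median 0.45), namely ICAM3 by 2.29, the hyaluronan receptor CD44 by 1.60 and the selectin ligand SELPLG by 1.3 (blocked adjusted p 0.0582, 0.147 and 0.214). CD44 ranged from 103 to 259 CPM in the controls and from 142 to 1526 CPM after heat stress, and 6 heat stress libraries exceeded every control. In the BCL2 family, 2 of 13 rose (median 0.08): MCL1, which holds back cell death, by 0.93 and BBC3, which promotes it, by 1.14 (blocked adjusted p 0.0702 and 0.376). Single libraries decided several of these calls, and of the 26 fits that leave out 1 library TLR8 and AHSA1 lost theirs in 16 each, SAMD9 and BBC3 in 14, JUN in 10, HERPUD1 in 9, PLIN2 in 2 (calves 18 and 40, heat stress) and TLR4 in 1 (calf 18, heat stress). With total counts as library size, the medians of this family and of 4 other lists near 0 turned negative: BCL2 family -0.10, interferon-stimulated -0.09, unfolded protein response -0.07, antioxidant -0.01 and monocyte -0.00.

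Genes of glucose transport and glycolysis rose in 3 of 22 (median 0.41). SLC16A3, the transporter that exports lactate, ranged from 2.86 to 51.7 CPM in the controls, with a median of 15.0, and from 14.5 to 418 CPM after heat stress, with a median of 66.7. SLC16A3 exceeded every control in 8 heat stress libraries, rose by 2.29 ± 0.44 (SE, adjusted p = 0.0016) and stayed called with the calf as a block (1.93, adjusted p = 0.0234). PFKFB3, which sets the level of an activator of glycolysis, rose by 1.93 (adjusted p = 0.00135; blocked 0.0969), and the glucose transporter SLC2A3 rose by 1.18 (adjusted p = 0.0026; blocked 0.0768). Of 10 genes of fat droplets and lipolysis, 3 rose (median 1.07): G0S2, DGAT2, the last enzyme of triglyceride synthesis (2.23), and the droplet coat protein PLIN2 (1.16), with blocked adjusted p of 0.0582 and 0.0996 for the latter pair. NFE2L2, the regulator of antioxidant genes, was the only call of 20 antioxidant genes in edgeR (1.20, adjusted p = 0.00552, blocked 0.0698). That share is near the 5.88% of all genes that rose.

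Chaperones of the heat shock response rose in 4 of 19 tested (median 0.30). HSPA1A, inducible HSP70 (chromosome 23, 27520317 to 27522790), ranged from 8.57 to 45 CPM in the controls, with a median of 23.5. After heat stress its lowest, median and highest values were 18.3, 81.2 and 1003 CPM. It stood above every control in 9 libraries and was highest in calf 18. The next highest library, of calf 12, held 143 CPM. HSPA1A rose in 11 of 12 calves, by 2.59 ± 0.46 (SE, adjusted p = 0.000986), by 1.64 without calf 18, and by 1.87 with the calf as a block (adjusted p = 0.0132).

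HSP90AA1, the inducible cytosolic HSP90, ranged from 1192 to 2306 CPM in the controls and from 1438 to 7413 CPM after heat stress, with medians of 1496 and 2778. It stood above every control in 9 libraries and rose by 0.99 ± 0.19 (SE, adjusted p = 0.00158; blocked 0.067). HSPH1, an exchange factor of HSP70, rose by 1.41 (adjusted p = 0.00603; blocked 0.128), and AHSA1, which stimulates the ATPase of HSP90, by 1.14 (adjusted p = 0.0409; blocked 0.367). Summed over the 19 genes, the list lay at 3980 to 5413 CPM in the controls and 4780 to 14220 CPM after heat stress, and 10 of 13 heat stress libraries exceeded every control. The medians of this sum were 4479 and 6402 CPM, of which HSP90AA1 alone had medians of 1496 and 2778 CPM, and 15 of the 19 genes were not called. The unfolded protein response had 2 calls of 19 (median 0.04), the transcription factor ATF4 (0.76, adjusted p = 0.00773; blocked 0.159) and HERPUD1 (0.83, adjusted p = 0.0331; blocked 0.132). The cold-inducible RNA-binding proteins CIRBP and RBM3 had log2 changes of -0.62 and -0.48. In edgeR neither was called (adjusted p 0.334 and 0.422), and 0 had an unadjusted p under 0.05. With Takara the same test called both, at -0.57 and -0.70 (adjusted p 0.00118 and 0.000203), each lower in 12 of 12 calves.

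Among 14 circadian clock genes NFIL3 alone was called, a share near the 5.88% of all genes that rose. This repressor of clock output had medians of 44.5 CPM (18.0 to 149) and 121 CPM (28.8 to 910) and a log2 change of 2.23 ± 0.42 (SE, adjusted p = 0.00139; blocked 0.0624). In 6 heat stress libraries it exceeded every control. The median of the list was -0.27. The list held 1 other gene with an unadjusted p under 0.05, BHLHE41, a repressor of the clock, which was picked out after its values were seen. BHLHE41 had medians of 61.2 and 40.6 CPM and a log2 change of -0.62, lower in 10 of 12 calves, and was not called (adjusted p = 0.186), while with Takara it changed by -0.71 (adjusted p = 0.00587). NFIL3 is also known as a gene of cytokine and glucocorticoid responses.

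**Figure D4:**
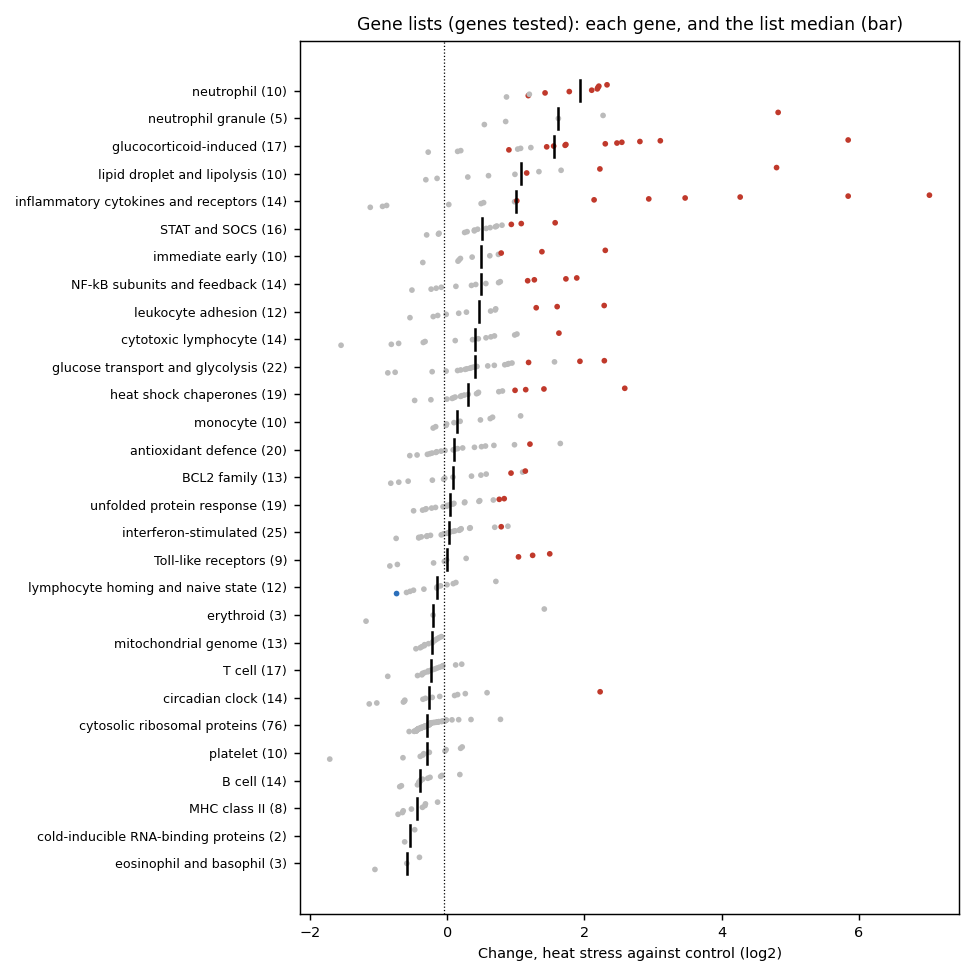
Log2 change, heat stress against control, of every tested gene of 29 lists (points; red, rose; blue, fell; grey, not called), with the list median as a bar and the median of all 11066 genes as a dotted line. The glucocorticoid-induced and neutrophil lists lie highest among the lists with more than 5 genes, at medians of 1.55 and 1.94, and the T cell, B cell, MHC class II and ribosomal protein medians lie below the dotted line.

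Markers of neutrophils moved with these changes. Of 10 tested, 8 rose and 0 fell (median 1.94), and in 5 granule genes only BPI rose (median 1.62), while 3 of the listed granule genes had no count in any library. S100A8, a calcium-binding alarmin, ranged from 414 to 2926 CPM in the controls and from 982 to 18780 CPM after heat stress, with medians of 1348 and 3905. It stood above every control in 9 libraries and rose by 2.19 ± 0.44 (SE, adjusted p = 0.00219; blocked 0.136). Its partner S100A9 rose by 2.21 (blocked adjusted p = 0.0768), S100A12 by 2.11 (blocked 0.145) and the chemokine receptor CXCR2 by 1.43 (blocked 0.0768). Summed over the 10 markers, the controls lay between 1867 and 10222 CPM, with a median of 5263, and the heat stress libraries between 2525 and 54939 CPM, with a median of 15242. The sum exceeded every control in 8 heat stress libraries, those of calves 12, 14, 15, 16, 18, 29, 36 and 40, from 11392 CPM in calf 12 to 54939 CPM in calf 40. The part that the neutrophil share of the RNA had in the increases of other genes was not tested.

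Lymphocyte and antigen presentation genes had mostly negative changes, few of which passed the test. Of 17 T cell genes 0 were called (median -0.24, 15 negative), of 14 B cell genes 0 (median -0.39, 13 negative) and of 8 MHC class II genes 0 (median -0.44, 8 negative). In edgeR at an unadjusted p under 0.05, 0, 1 and 2 of them passed, where 17.3% of all genes tested did. CD247, the zeta chain of the T cell receptor complex, ranged from 120 to 325 CPM in the controls and from 86.4 to 365 CPM after heat stress, with a log2 change of -0.37 (adjusted p = 0.41). Of the 13 heat stress libraries, 4 lay below every control and 2 above. ZAP70, the kinase that binds this chain, had -0.36 (adjusted p = 0.567), the B cell antigen MS4A1 -0.41 (adjusted p = 0.292) and BOLA-DRA, an MHC class II chain, -0.66 (adjusted p = 0.111). The summed T cell genes lay below every control in 6 heat stress libraries (calves 15, 16, 18, 29, 36 and 40) and above every control in 2. They ranged from 863 to 1461 CPM in the controls and from 490 to 1537 CPM after heat stress.

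Of 12 genes of lymphocyte homing and the naive state, GPR174, a lysophosphatidylserine receptor, fell by 0.74 (adjusted p = 0.0497; blocked 0.0582), and 19 of the 26 fits that leave out 1 library did not call it. Among 14 genes of cytotoxic lymphocytes, only NCR1, a receptor of natural killer cells, was called, a share near the 5.88% of all genes that rose. NCR1 rose by 1.63 in edgeR (adjusted p = 0.024, blocked 0.272) and was not called without the heat stress library of calf 18. The median of the list was 0.41. Monocyte markers gave 0 calls of 10 (median 0.14; VCAN 0.66, adjusted p = 0.159), eosinophil and basophil markers 0 of 3, platelet markers 0 of 10 (median -0.30; PF4 -0.36, adjusted p = 0.679) and erythroid markers 0 of 3 (HBB -0.21, adjusted p = 0.788). At an unadjusted p under 0.05, edgeR passed 2 monocyte, 0 eosinophil or basophil, 1 platelet and 1 erythroid gene. The summed erythroid markers overlapped between the times, at 182 to 914 CPM in the controls and 209 to 992 CPM after heat stress.

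Cytosolic ribosomal protein genes had negative changes in 72 of 76 (median -0.29) and mitochondrial genes in 13 of 13 (median -0.22). None passed the test in edgeR, and 29 and 5 of them had an unadjusted p under 0.05, beside 17.3% of all genes tested. RPS12 had a log2 change of -0.32 (adjusted p = 0.151) and RPL23 of -0.30 (adjusted p = 0.22). The direction of both lists differed between the number sets: the medians were -0.60 and -0.55 in set 1 and 0.09 and 0.11 in set 2, and this difference of the lists was not tested.

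Of the 49 genes that fell, 29 were protein coding of 10220 tested, 13 were small nuclear RNA (snRNA) of 51, 4 were small nucleolar RNA (snoRNA) of 71 and 3 were long non-coding RNA (lncRNA) of 611. Small nuclear RNAs are the RNA parts of the spliceosome, and small nucleolar RNAs guide the modification of ribosomal RNA. Most lack a poly(A) tail, and many have near-identical copies in the genome, so that the count of a single copy is uncertain. This grouping by biotype was made after the values were seen.

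LOC112442853, annotated as snRNA (chromosome 19, 43221844 to 43222034), ranged from 132 to 834 CPM in the controls, with a median of 364, and from 28.1 to 269 CPM after heat stress, with a median of 99.4. It was lower after heat stress in 12 of 12 calves and fell by 1.79 on the log2 scale (SE 0.33, adjusted p = 0.00134; blocked -1.96, adjusted p = 0.00448). LOC112443660 (chromosome 2, 124806156 to 124806288) ranged from 338 to 1042 CPM in the controls and from 57.8 to 818 CPM after heat stress, where 11 of 13 libraries lay below every control. It was lower in 12 of 12 calves, with a log2 change of -1.11 (adjusted p = 0.0168; blocked -1.53, adjusted p = 0.00393). LOC112448627, the called snRNA gene with the highest control median, had medians of 987 and 321 CPM and a log2 change of -1.20 (adjusted p = 0.0111; blocked -1.62, adjusted p = 0.00445). The snoRNA LOC112442867 (chromosome 19, 9572654 to 9572868) had medians of 270.2 and 134 CPM and a log2 change of -1.09 (adjusted p = 0.00339; blocked adjusted p = 0.00448).

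The median change was -0.85 over the 51 snRNA genes and -0.54 over the 71 snoRNA genes, and 1 gene of each class rose. With the calf as a block, 15 of the 16 genes called down were snRNA or snoRNA. Without the heat stress libraries of calves 15 and 18 the count of snRNA genes called down was again 13. Leaving out 1 library gave 8 to 17, and 8 was the count without the heat stress library of calf 36 or the control library of calf 23. The snRNA medians were -0.73 in set 1, where edgeR called 1 of 52 down, and -0.81 in set 2, where it called 0 of 50 down (17 at an unadjusted p under 0.05). A run of 3 snRNA genes in 1 stretch of chromosome 19, from 43195585 to 43230004, had log2 changes of -1.85, -1.79 and -1.76, and the first of these was not called with the calf as a block (adjusted p = 0.253). The lncRNA LOC132343001 (chromosome 19, 9584018 to 9611199) was the only one of the 11066 genes tested whose groups did not overlap. It had 30.8 to 103 CPM in the controls and 0 to 29.7 CPM after heat stress. It fell by 1.74 ± 0.41 (SE, adjusted p = 0.00716), and the adjusted p was 0.0895 with the calf as a block. It was singled out after the values were seen.

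**Figure D5:**
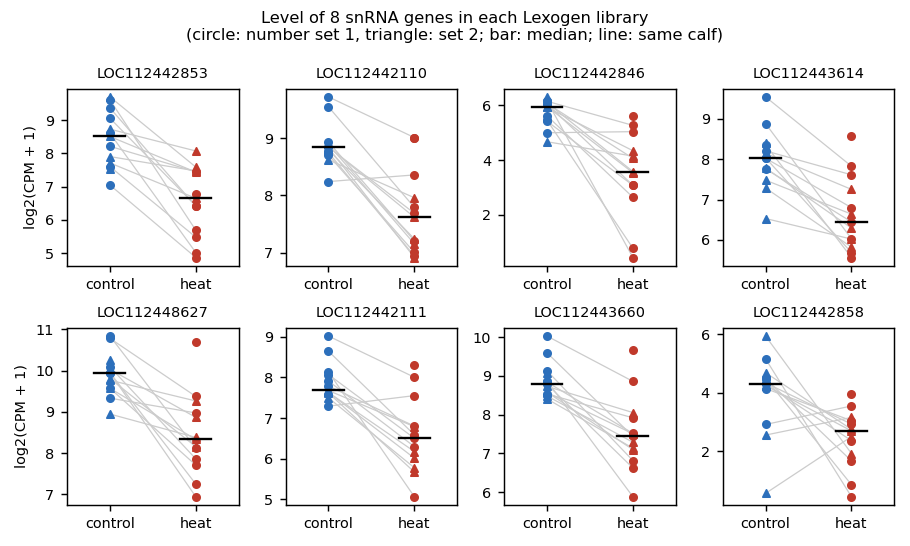
Level of the 8 snRNA genes with the smallest adjusted p in each of 26 Lexogen libraries, as log2(CPM + 1), for control (blue) and heat stress (red); circles are number set 1, triangles set 2, the bar is the median and lines join the libraries of 1 calf. In LOC112442853, LOC112443614, LOC112448627 and LOC112443660 all 12 lines go down.

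Among the protein coding genes that fell, TUT4, which adds uridines to RNA ends, ranged from 135 to 403 CPM in the controls, with a median of 258, and from 67.8 to 221 CPM after heat stress, with a median of 117.2. It lay below every control in 8 heat stress libraries and fell by 0.81 on the log2 scale (SE 0.20, adjusted p = 0.0108; blocked 0.0698). NONO, an RNA-binding protein of paraspeckles, had medians of 38 CPM (19.3 to 65.2) and 23.3 CPM (9.12 to 32.6) and a log2 change of -0.98 (adjusted p = 0.0193; blocked 0.0867). SRBD1, which carries an RNA-binding domain, was lower in 12 of 12 calves, with medians of 86.0 and 37.7 CPM and a log2 change of -0.90 (adjusted p = 0.0251). It alone of the 29 stayed called with the calf as a block (-1.02, adjusted p = 0.0395). Without the heat stress libraries of calves 15 and 18 its adjusted p was 0.0773, and the call was also lost without the control library of calf 36.

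UXT, a prefoldin-like chaperone, fell by 0.80 (adjusted p = 0.0122; blocked 0.068). The other named genes were IPP, a kelch protein that binds actin (-1.22, adjusted p = 0.0277), PRNP, the prion protein (-1.14, adjusted p = 0.0444), KDM1A, a histone demethylase (-1.13, adjusted p = 0.0374), the dynein heavy chain DNAH12 (-1.01, adjusted p = 0.0347), the transcription factor NFE2L3 (-0.81, adjusted p = 0.0327) and the proton channel HVCN1 (-0.77, adjusted p = 0.0477). Their blocked adjusted p values were 0.202, 0.221, 0.184, 0.136, 0.244 and 0.188. Of the 26 fits that leave out 1 library, 2, 16, 12, 8, 9 and 18 lost these 6 calls.

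A few genes separated the times in nearly every library. In 11 of the 11066 genes tested, at least 11 heat stress libraries lay beyond all controls. Of these genes 9 were higher and 2 lower, and 6 stayed called with the calf as a block. They were looked for after the values were seen. SNRK, a kinase of the AMPK family, ranged from 178 to 415 CPM in the controls and from 264 to 1406 CPM after heat stress, with medians of 304 and 550.3. It was above every control in 12 of 13 libraries and higher in 12 of 12 calves, with a log2 change of 1.16 ± 0.19 (SE, adjusted p = 0.000804; blocked 1.07, adjusted p = 0.0132). MEGF9 had medians of 56.3 and 360.4 CPM and a log2 change of 2.91 (adjusted p = 0.000463; blocked 0.0207). HIPK3, a protein kinase, rose by 1.59 (blocked adjusted p = 0.0411), MBOAT1, a lysophospholipid acyltransferase, by 0.90 (blocked 0.0482) and TOP1, DNA topoisomerase 1, by 1.07 (blocked 0.0624).

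Whether the response differed between the number sets was tested as an interaction. In edgeR 2 of 11066 genes passed (0.0181%), and 833 had an unadjusted p under 0.05. In separate fits, set 1 gave 409 genes up and 23 down, and set 2, with 5 heat stress and 6 control libraries, gave 0 and 0 (784 up and 489 down at an unadjusted p under 0.05). IL1R2 changed by 6.13 in set 1 and 5.51 in set 2, BPI by 4.62 and 5.13, HSPA1A by 2.72 and 1.99 and HSP90AA1 by 1.20 and 0.69. NFE2L2 changed by 1.7 in set 1 and 0.28 in set 2, and SAMD9 by 1.12 and 0.15, and neither difference passed the test of the interaction.

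The Takara libraries of the same calves gave 2270 genes up (18.0%) and 1344 down (10.7%) of 12613. The median SE of a log2 change was 0.41 with the Lexogen kit and 0.18 with Takara, so smaller changes were detectable there. Genes called with Takara but not with Lexogen included HSPA8 (1.37), DNAJA1 (1.94), CD247 (-0.54) and RPS12 (-0.55). ZAP70, MS4A1 and BOLA-DRA were called with neither kit. PTX3 changed by 6.06, IL1R2 by 6.26, BPI by 5.51, FKBP5 by 3.27 and HSPA1A by 2.48 with Takara. The interaction of kit and time, tested in 24 RNA samples with a library of each kit, passed for 0 of 13103 genes (0.00%) in edgeR, while 515 had an unadjusted p under 0.05. Some named genes that fell had smaller changes with Takara. IPP changed by -0.18, PRNP by -0.15, KDM1A by -0.30 and NONO by -0.15 with Takara, none called. Their interactions had unadjusted p values of 0.0189, 0.0109, 0.0171 and 0.00852 in edgeR, and each had an adjusted p of 0.99975. These genes were named for their changes with the Lexogen kit, so a smaller change with Takara is partly set by that choice. Genes that rose also had low unadjusted interaction p values, such as S100A9 (0.00604) and PTX3 (0.0133). SRBD1 changed by -0.61, TUT4 by -0.48 and UXT by -0.49 with Takara, all called. Of the 13 snRNA genes that fell, 13 also fell with Takara, by log2 changes from -0.97 to -2.27. The kits read the same RNA, so the Takara values are not an independent sample of calves.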

How the data were processed

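RNA of the blood cells of Holstein calves that remained after lysis of red blood cells was sequenced with the Lexogen QuantSeq 3′ kit. Of the 54 libraries of the series, 26 were compared, 13 per time. The authors used Trimmomatic 0.39 for trimming and STAR 2.7.10b for mapping, on ARS-UCD2.0, and deposited raw, not normalized counts of unique reads for 32637 genes. The unstranded counts were used, since the column the authors analysed is not named, and 4 ribosomal RNA rows were removed before library sizes. Of the gene IDs, 30284 matched a RefSeq record of ARS-UCD2.0, which gave symbols, biotypes and positions. The gene named BMAL1 was looked up as ARNTL.

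Times were compared with edgeR 4.0.16 (filterByExpr defaults, TMM, glmQLFTest, time only; R 4.3.3), with Benjamini-Hochberg adjustment over all genes tested and a threshold of 0.05. SE is the size of the log2 change divided by the square root of F. DESeq2 1.42.0 and limma 3.58.1 were alternatives. Library measures were tested with two-sided permutation tests of 100000 resamples. Depth was 7126511 to 93690473 filtered reads. Without molecular identifiers, PCR copies of a molecule are counted again.

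Genes were named by rule: the 12 largest and the 10 most negative log2 changes among calls with a symbol, a mean of at least 3 log2 CPM and the same direction in at least 9 of 12 calves, plus up to 4 called members of each list, or up to 2 with the highest level where none was called. The libraries, lists and genes were chosen with earlier results of these data known. The 29 lists hold 510 genes, of which 498 are in the files. Lists are described by counts and medians, with no set test.

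The labels give the same calf number at both times, and 12 calves had both. Same-numbered libraries deviated together by a correlation over 0.1 in 2 of 12 calves (median 0.02; other pairs -0.00). In the Takara libraries they did so in 11 of 12 calves (median 0.23, other pairs -0.02). Since the number marks the same animal, the calf was run as a block, and its values stand beside the results whose call it ends. The test steps were tried on simulated counts with 200 changed genes.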

Additional observations from a re-analysis of the deposited data

Results flagged for a closer look

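The response of 2 genes differed between the number sets in the test of the interaction (edgeR). LOC132343567 had a difference of the log2 change, set 2 minus set 1, of -2.17 (SE 0.38, adjusted p = 0.0302). Its median went from 63.4 to 130.1 CPM in set 1 (7 control and 8 heat stress libraries) and from 149 to 69.5 CPM in set 2 (6 and 5 libraries). For COX7A2, a subunit of cytochrome c oxidase, the difference was 2.33 (SE 0.44, adjusted p = 0.0431). Its median went from 165 to 63.0 CPM in set 1 and from 86.3 to 183 CPM in set 2. With 11066 genes tested, 833 had an unadjusted p under 0.05.

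The Lexogen library of calf 20, whose time is in conflict between the sources, was used in no comparison. It stood above every control library in 12 of the 12 named genes with the largest increases, in CPM by plain total counts without ribosomal RNA rows. IL1R2 was at 2349 CPM there, against a highest control of 65.3, and HSPA1A at 2263 CPM, above the highest heat stress library (823 CPM). Entered as heat stress, this library gave 838 genes up and 86 down. Entered as control, it gave 0 and 0. These values do not assign its time.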

How the results depend on the processing

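The 651 genes up and 49 down kept their counts within 1.5 times with RLE normalization (RLE also left both interaction counts unchanged), the 12 calves with both times, sense counts, ribosomal RNA rows kept, number set as a covariate and robust fitting. Counts moved further as follows: DESeq2 gave 190 down; total counts as library size 386 up, with the median of all genes at -0.17; no filter on low counts 1846 up and 1537 down; voom with quality weights 123 down; calf 20 as heat stress 86 down and as control 0 and 0 (875 and 388 at an unadjusted p under 0.05; edgeR); set 1 alone 409 up and 23 down; and set 2 alone 0 and 0 (784 and 489 unadjusted; edgeR). Leaving out 1 library gave 464 to 796 up and 24 to 81 down. The count down moved by over 1.5 times without the heat stress libraries of calves 23 (81), 40 (26), 16 (28) and 36 (24) and the control library of calf 36 (29).

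The paired fit, with the calf as a replicate block, gave 50 up and 16 down, also in the 12 calves alone, and shared 60 of the 700 calls in direction. The next 3 alternatives, and the block in 12 calves alone, were chosen after seeing the data. Voom with quality weights and the replicate block gave 644 up and 80 down and shared 537 of the calls. The exact Wilcoxon test called 1.37% of 8447 genes up and 0.639% down and shared 143, and leaving out calves 15 and 18 gave 326 up. Of the 64 named calls, 6 held with the block, 51 with voom weights and block, 14 by Wilcoxon test, 42 without calves 15 and 18, and 45 in every fit that left out 1 library. The Wilcoxon test was not run on PTX3, CPNE2 and FNTB, which had tied values.

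Of the genes whose value changed sign in another fit, HSPA1A alone was called in the main fit. With calf 20 as control HSPA1A took -0.73 and was not called (edgeR, adjusted p = 0.812). PPBP took 0.040 with the block (and in 12 calves), 0.015 with calf 20 as control, 0.40 in set 1, 0.053 with voom weights, 0.078 with voom weights and block and 0.0054 by Wilcoxon test, and -0.131 to 0.116 over the fits that left out 1 library. PF4 took 0.15 in set 1, 0.27 with voom weights and 0.11 with voom weights and block, and TGFBI -0.16 in set 1 and -0.049 with voom weights. In set 2, CIRBP took 0.25, BOLA-DRB3 0.15, CD247 0.11, GATA2 0.29, HBB 0.35, ATP6 0.53 and ND3 0.092. Causes were not tested. A median SE of 0.41 limits what these libraries detect.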
